A study of Mus musculus with 2 samples.

Results

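The 10 genes described here are members of the bone morphogenetic protein (BMP) pathway in the mouse yolk sac at embryonic stage E8.75. They are the ligand genes Bmp2, Bmp4, Bmp5 and Bmp7, the extracellular modulator gene Bmper, the inhibitory genes Smad6 and Smad7, and the target genes Id1, Id2 and Id3. They were chosen by symbol, as 10 of the 30970 genes measured, and all 10 were found. All animals had the genotype Ttr-Cre/+; R26lsl-rtTA-EGFP/+, in which Cre recombinase is driven by the promoter of Ttr, a gene of the visceral endoderm, and a Rosa26 allele needs Cre to make rtTA and EGFP. There was no other genotype and no treated group, so the comparisons were between cell classes. Yolk sac cells of 3 samples were labelled with CellPlex oligonucleotides, pooled and captured together. They carry the names Ctrl1, Ctrl2 and Ctrl3 and are numbered here as tagged samples 1, 2 and 3.

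There were 460, 651 and 706 cells with 22007477, 32890946 and 33114758 unique molecular identifiers (UMIs) in tagged samples 1, 2 and 3, and no barcode was in more than 1 of them. After 77 cells had been left out for few genes or many mitochondrial UMIs, each of 1740 cells was placed by the share of its UMIs from marker genes. The endoderm class took 559 cells (Ttr, Apob and Apom), the mesoderm class 199 (Hand1, Vcan and Foxf1), the endothelium class 115 (Cdh5, Ctla2a and Plvap) and the erythroid class 629 (7 globins). A further 188 cells passed no gate, and 50 passed more than 1 and were dropped. Markers that were not in the gates were highest in the class of their name. The 7 endoderm check genes summed to between 9344 and 12334 counts per 1000000 UMIs (CPM) in the endoderm class and to at most 329 in the other 3 classes. Summed levels of the mesoderm check genes were 387, 802 and 680 CPM in the mesoderm class and at most 40.1 in the other 3 classes. The endothelium and erythroid check genes were likewise highest in their own classes, at 1162 to 1255 and 747 to 1050 CPM. Within 2 times their gate lay 61 of 587 endoderm, 60 of 223 mesoderm, 38 of 126 endothelial and 210 of 668 erythroid cells, counted before cells of more than 1 class were dropped, and between 0.5 times the gate and the gate lay 21, 37, 15 and 87 cells. The mesoderm gate was not uniform, which bears on the Id genes. Contractile genes summed to 627, 769 and 158 CPM there, carried by 4 cells, and leaving those cells out changed no call on a member. A further mixture was that 26 of its 199 cells carried a UMI of Tfap2c or Krt7, genes of trophoblast and other epithelia. In the endothelium class, 7 blood progenitor and megakaryocyte genes summed to 92.6, 122 and 161 CPM, though Gp9 and Ptprc had no UMI. The list was at 61.1 to 88.3 CPM in the erythroid class and at most 43.4 CPM in the endoderm and mesoderm classes. The part of blood progenitor cells in the endothelial values was not tested. Each tagged sample contained cells with Xist and cells with Y-linked transcripts, although the design text gives 3 yolk sacs from 3 embryos. The number of embryos behind a tagged sample is therefore unresolved here, and p-values measure only the spread between the 3 tagged samples.

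BMPs are secreted ligands that bind a pair of type I and type II receptor kinases, which phosphorylate SMAD1, SMAD5 or SMAD9. These SMADs enter the nucleus with SMAD4 and raise the transcription of direct targets, among which the Id genes, encoding inhibitors of basic helix-loop-helix factors, and the feedback inhibitors Smad6 and Smad7 are the most widely used readouts. In the yolk sac the outer visceral endoderm lies against an inner mesoderm, from which blood and vessels form, and BMP4 is known for its part in making that mesoderm and its blood islands. RNA levels alone do not measure ligand release, receptor activity or SMAD phosphorylation.

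Promoter windows of 250 bases before and 50 bases after the transcription start were used for 6 of the 10 members (Bmp4, Bmp5, Bmper, Smad6, Id2 and Id3), from RefSeq's annotation of GRCm38.p6. Those of Id2 and Id3, a pair of genes higher in the endoderm than in the mesoderm class, and of Bmp4 and Bmp5, highest in the mesoderm class, are shown so that a reader can see the sequence next to the start of genes with opposite patterns. Each is printed 5′ to 3′ on the gene's own strand. Capitals mark GGCGCC, a palindrome found in BMP response elements, and GTCTG, or CAGAC on the opposite strand, the core of a SMAD-binding element. The Id2 window is chr12:25096043-25096342 on the minus strand and the Id3 window chr4:136143572-136143871 on the plus strand. For Bmp4 it is chr14:46390620-46390919 on the minus strand, and for Bmp5 chr9:75775115-75775414 on the plus strand.
Id2: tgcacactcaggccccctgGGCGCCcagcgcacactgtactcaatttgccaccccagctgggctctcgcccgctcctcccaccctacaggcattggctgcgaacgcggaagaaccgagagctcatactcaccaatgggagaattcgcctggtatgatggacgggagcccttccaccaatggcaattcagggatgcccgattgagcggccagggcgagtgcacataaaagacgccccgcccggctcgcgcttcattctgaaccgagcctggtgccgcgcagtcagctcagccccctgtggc
Id3: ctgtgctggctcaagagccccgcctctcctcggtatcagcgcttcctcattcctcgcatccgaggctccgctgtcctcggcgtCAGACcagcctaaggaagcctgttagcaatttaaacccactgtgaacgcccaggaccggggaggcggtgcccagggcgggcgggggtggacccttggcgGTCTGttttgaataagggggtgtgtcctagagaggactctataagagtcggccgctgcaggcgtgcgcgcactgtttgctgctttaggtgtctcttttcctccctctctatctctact
Bmp4: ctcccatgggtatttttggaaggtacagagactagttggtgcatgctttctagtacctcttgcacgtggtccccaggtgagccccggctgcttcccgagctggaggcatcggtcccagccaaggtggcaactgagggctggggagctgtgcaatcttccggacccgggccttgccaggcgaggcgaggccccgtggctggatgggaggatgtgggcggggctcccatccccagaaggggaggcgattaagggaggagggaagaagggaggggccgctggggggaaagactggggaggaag
Bmp5: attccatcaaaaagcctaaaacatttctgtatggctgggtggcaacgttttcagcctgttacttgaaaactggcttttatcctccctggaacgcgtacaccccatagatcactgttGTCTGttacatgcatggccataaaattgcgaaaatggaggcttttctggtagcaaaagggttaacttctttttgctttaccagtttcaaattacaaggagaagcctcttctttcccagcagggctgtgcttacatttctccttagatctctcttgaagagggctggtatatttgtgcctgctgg
The start used by RefSeq is not always the 5′ end of the gene in GENCODE M21, the annotation whose gene positions are given with the values: for Id2 it lies 1048 bases and for Id3 325 bases inside the gene, for Bmp5 1 base, and for Bmp4 the positions are equal. GGCGCC occurred once in the Id2 window, 231 bases before the start that RefSeq gives, and in none of the other 5 members' windows. Of all 32851 windows of this length, 11.9% held it. GTCTG or CAGAC occurred at 2 places in the Id3 window and at 1 in that of Bmp5, against 49.6% of all windows with at least 1. These are matches of letters in a short window and say nothing about binding.

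The ligand genes fell into mesoderm and endoderm sets. Bmp2, Bmp4 and Bmp5 were highest in the mesoderm class, whereas Bmp7 was highest in the endoderm class. Levels are CPM of a class in a tagged sample, that is, UMIs of the gene per 1000000 UMIs of that class, in the order of tagged samples 1, 2 and 3. Differences are log2 values fitted by edgeR's quasi-likelihood test on the class sums, 3 against 3, with trimmed mean of M-values (TMM) scaling and p-values adjusted over all genes tested. Because of that scaling a fitted difference is not exactly the ratio of 2 CPM values. The SE after ± is the absolute log2 difference divided by the square root of the test's F, so it adds nothing to the test.

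**Figure D1:**
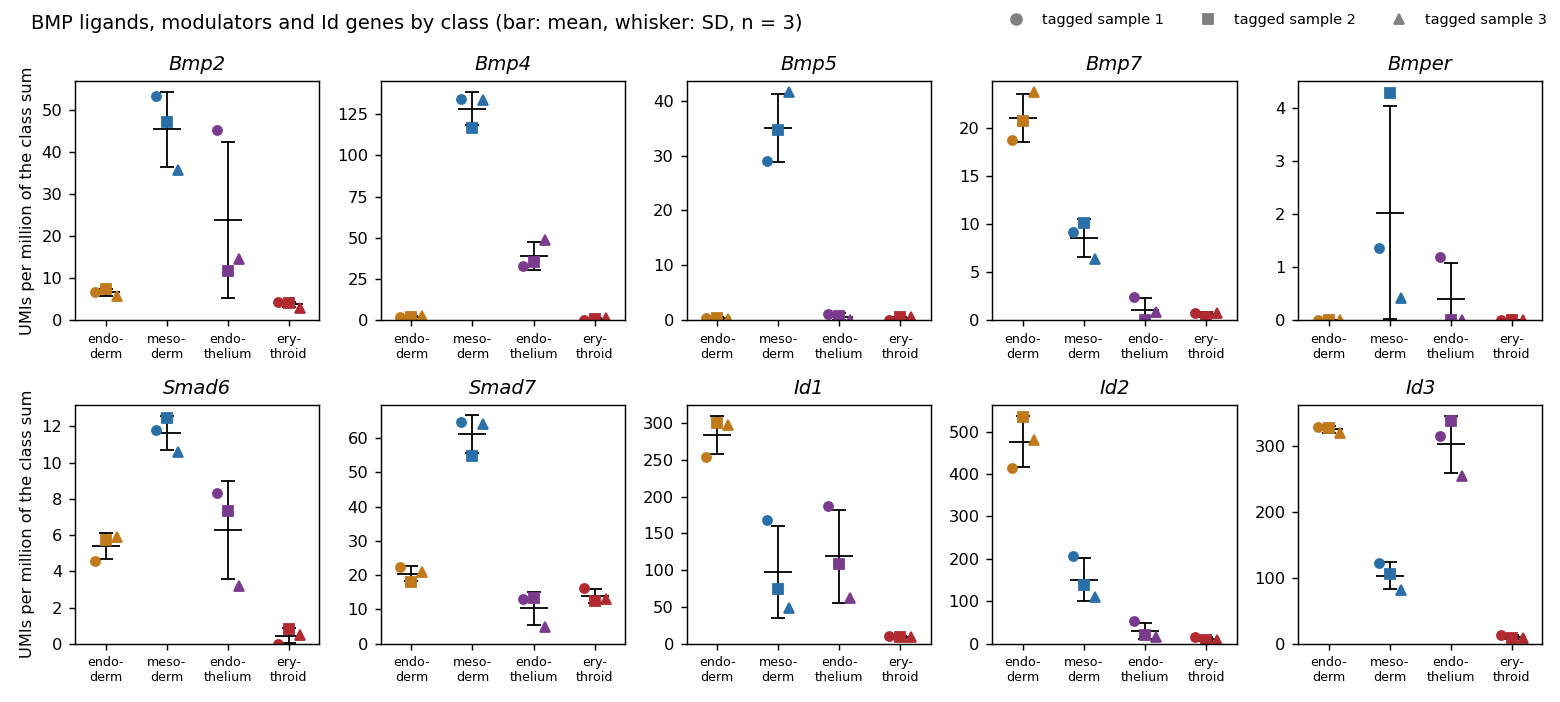
Levels of the 10 members in CPM (vertical axes, linear, each from 0) in the 4 classes. Points are the 3 tagged samples, the bar is their mean and the whisker 1 SD: Bmp4 stands at 117 to 135 CPM in the mesoderm class, and Id2 at 414 to 535 CPM in the endoderm class.

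Bmp4 (chr14:46383520-46390669, minus strand, GRCm38), the BMP ligand needed for extraembryonic mesoderm, reached 135, 117 and 134 CPM in the mesoderm class. It was at 32.6, 35.3 and 48.8 CPM in the endothelium class, at 1.79, 1.80 and 2.40 CPM in the endoderm class and at 0.232, 0.560 and 1.37 CPM in the erythroid class. The ranges of the 4 classes did not overlap. Mesoderm exceeded endoderm by 5.76 ± 0.15 on the log2 scale (SE, adjusted p = 2.02e-10, edgeR), and endothelium exceeded endoderm by 4.14 ± 0.24 (adjusted p = 8.11e-09, edgeR). The mesoderm class also exceeded the endothelium class by 1.61 ± 0.16 (adjusted p = 4.32e-06, edgeR). Erythroid and endoderm cells differed by -0.91 ± 0.41 (adjusted p = 0.0631, edgeR), and by -1.09 with an adjusted p of 0.0191 when edgeR blocked by tagged sample. Without tagged sample 3 the difference was -1.73 (adjusted p = 0.0164, edgeR), and it also passed with library size alone (-1.12, adjusted p = 0.0253), with no low-count filter (adjusted p = 0.0231) and in the fit of all 4 classes (adjusted p = 0.0463). The mesoderm class held 77.9% of the Bmp4 UMIs of the 4 classes.

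Bmp2 (chr2:133552159-133562885, plus strand), a ligand close to Bmp4 in sequence, stood at 53.2, 47.1 and 35.6 CPM in the mesoderm class. Its levels were 6.72, 7.35 and 5.67 CPM in the endoderm class and 4.17, 4.01 and 2.92 CPM in the erythroid class. In the endothelium class it was 45.1 CPM in tagged sample 1 but 11.8 and 14.4 CPM in tagged samples 2 and 3, so that class overlapped the mesoderm. The 76 UMIs behind the first of these values came from 23 of 36 cells. The mesoderm class was higher than the endoderm class by 2.52 ± 0.19 (SE, adjusted p = 4.11e-07, edgeR). Endothelium exceeded endoderm by 1.78 ± 0.38 (adjusted p = 0.00128, edgeR), and without tagged sample 1 this became 0.84 (adjusted p = 0.0303). Erythroid cells were lower than endoderm by a log2 of -0.69 ± 0.20 (adjusted p = 0.00902, edgeR), a call that was lost without tagged sample 3 (-0.58, adjusted p = 0.0628), in the fit of all 4 classes (adjusted p = 0.0852) and after thinning all sums to the smallest (-0.48, adjusted p = 0.0994). Between mesoderm and endothelium the difference of 0.74 ± 0.36 did not pass (adjusted p = 0.138, edgeR). It passed with the tagged sample as a block (0.85, adjusted p = 0.0115, edgeR), without tagged sample 1 (1.55, adjusted p = 0.000115), with gates doubled (1.23, adjusted p = 0.0104) and with no low-count filter (0.75, adjusted p = 0.00107).

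Bmp5 (chr9:75775364-75900310, plus strand), a ligand of the same subgroup as Bmp7, was found almost only in the mesoderm class, which held 90.6% of its UMIs in the 4 classes. It reached 29.1, 34.6 and 41.5 CPM there, and no more than 1.19 CPM in any tagged sample of the other 3 classes. In the endoderm class it was at 0.448, 0.347 and 0.109 CPM. Mesoderm exceeded endoderm by 6.51 ± 0.29 (SE, adjusted p = 7.93e-09, edgeR). Against the endothelium class, where it had only 3 UMIs, the pooled level was 50.4 times as high (95% exact counting interval 17.1 to 246). It did not pass the low-count filter in the 3 comparisons without the mesoderm class. There the exact two-sided permutation test of CPM gave p between 0.5 and 0.8, where 0.1 is the smallest p that 3 against 3 can reach.

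Bmp7 (chr2:172868012-172940321, minus strand) showed the opposite pattern. It was at 18.7, 20.7 and 23.6 CPM in the endoderm class and at 9.10, 10.1 and 6.36 CPM in the mesoderm class. The endothelium class had 2.37, 0 and 0.800 CPM and the erythroid class 0.695, 0.280 and 0.774 CPM. Endoderm was above every other class in all 3 tagged samples. The mesoderm class was lower than the endoderm by 1.54 ± 0.20 on the log2 scale (fitted log2 -1.54, adjusted p = 4.74e-05, edgeR), and the endothelium class by a fitted log2 of -4.28 ± 0.43 (adjusted p = 2.06e-06). Without tagged sample 1, which held 4 of the 5 endothelial UMIs, the latter was -5.91 (adjusted p = 1.45e-07, edgeR). In mesoderm against endothelium Bmp7 was higher by 2.70 ± 0.59 (adjusted p = 0.00304, edgeR), and by 4.11 without tagged sample 1 (adjusted p = 0.000824). The remaining endothelial and erythroid signal was 5.56% and 2.85% of the pooled endoderm level. For comparison, 10 endoderm marker genes stood at 1.66% to 3.05% of their endoderm level in the endothelium class and at 1.41% to 2.32% in the erythroid class, which is the level that free RNA from endoderm cells could give. Of these, 3 are the gate genes Ttr, Apob and Apom, whose level outside the endoderm class is limited by the gate. Without them the erythroid range began at 1.54%.

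Bmper (chr9:23223076-23485200, plus strand), which encodes a secreted protein that binds BMPs, was scarce. The endothelium class held 2, 0 and 0 UMIs. The mesoderm class held 3, 11 and 1 UMIs, of which 6 came from 1 cell of tagged sample 2. In the same class 5 genes of parietal endoderm (Lamb1, Thbd, Pth1r, Snai1 and Plat) summed to 93.7, 200 and 113 CPM, also highest in tagged sample 2. These genes were not particular to that class, as they summed to 119, 134 and 136 CPM in the endoderm class. The part of parietal endoderm cells in the mesoderm-gate Bmper UMIs was not tested. No Bmper UMI was found in the endoderm or erythroid class. The pooled mesoderm level was at least 22.8-fold higher than a floor of 3 counts over the endoderm class, and at least 22.3-fold higher than that floor over the erythroid class. Bmper passed the low-count filter in none of the 6 comparisons. The exact two-sided permutation test of CPM gave p = 0.1 for mesoderm against endoderm, the smallest it can give.

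The inhibitory SMAD genes did not follow a single pattern. Smad7, which encodes an inhibitor of BMP and TGF-beta receptors, was at 64.6, 54.8 and 64.0 CPM in the mesoderm class. It was at 22.3, 18.02 and 20.8 CPM in the endoderm class, at 16.2, 12.6 and 13.0 CPM in the erythroid class and at 13.1, 13.2 and 4.80 CPM in the endothelium class. The mesoderm class was above all other classes in every tagged sample, and the endothelium class overlapped the erythroid class. In tagged sample 2 of the endothelium class, 1 cell gave 11 of the 18 UMIs. The mesoderm class was higher than the endoderm class by 1.35 ± 0.12 (SE, adjusted p = 1.94e-06, edgeR) and higher than the endothelium class by 2.39 ± 0.24 (adjusted p = 6.81e-06, edgeR). Endothelium was lower than endoderm by a log2 of -1.05 ± 0.25 (adjusted p = 0.00302, edgeR). For erythroid against endoderm the difference was -0.36 ± 0.12 (adjusted p = 0.0176, edgeR). The call was lost with DESeq2 (-0.34, adjusted p = 0.0699) after thinning all sums to the smallest (-0.28, adjusted p = 0.109), with gates halved (-0.18, adjusted p = 0.189), and without tagged sample 2 (adjusted p = 0.0549) or 3 (adjusted p = 0.174), all by edgeR but the first. The erythroid level was 66.7% of the endoderm level, far above the share at which endoderm markers were found in erythroid cells. Endothelium against erythroid was called at -0.66 (adjusted p = 0.0413, edgeR) but not without tagged sample 3 (-0.40, adjusted p = 0.231) nor with library size alone (-0.34, adjusted p = 0.293). That call was also lost with thinned sums (-0.49, adjusted p = 0.253, edgeR), the stricter cell filter (-0.62, adjusted p = 0.0547) and DESeq2 (-0.67, adjusted p = 0.0596).

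Smad6 (chr9:63953076-64022059, minus strand), whose product blocks BMP-activated SMADs, was at 11.8, 12.4 and 10.6 CPM in the mesoderm class. It stood at 8.31, 7.35 and 3.20 CPM in the endothelium class, at 4.59, 5.75 and 5.88 CPM in the endoderm class and at 0, 0.840 and 0.477 CPM in the erythroid class. Mesoderm did not overlap any other class, and endothelium overlapped endoderm. Mesoderm exceeded endoderm by 0.85 ± 0.21 (SE, adjusted p = 0.00404, edgeR), and erythroid cells were lower than endoderm by a log2 of -3.11 ± 0.38 (adjusted p = 1.35e-05, edgeR). Endothelium and endoderm differed by 0.12 ± 0.33, which did not pass (adjusted p = 0.763, edgeR), and mesoderm and endothelium by 0.72 ± 0.33, which did not pass either (adjusted p = 0.112). The endothelial level rested on 28 UMIs.

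The Id genes were high in the endoderm class. Id2 (chr12:25093799-25097140, minus strand) was at 414, 535 and 479 CPM in the endoderm class. It was at 206, 138 and 110 CPM in the mesoderm class, at 52.8, 21.3 and 16 CPM in the endothelium class and at 15.5, 9.52 and 8.76 CPM in the erythroid class. The endoderm class was above the others in every tagged sample, the mesoderm class came next, and the endothelium class lay above the erythroid class without overlap. The place of the mesoderm class rests on 26 cells with a Tfap2c or Krt7 UMI that held 68.0% of its Id2 UMIs. Without them it was at 51.2, 73.3 and 44.6 CPM, overlapping the endothelium class, and its difference from endoderm was -3.29. With all cells Id2 was higher in mesoderm than in endothelium by 2.15 ± 0.34 (SE, adjusted p = 0.000259, edgeR), and without those 26 cells by 0.74, which did not pass (adjusted p = 0.0993). In tagged sample 1 of the endothelium class a single cell gave 63 of the 89 Id2 UMIs. Fitted differences from endoderm were -1.90 ± 0.20 for mesoderm (SE, adjusted p = 6.46e-06, edgeR), -4.04 ± 0.26 for endothelium (adjusted p = 2.91e-08) and -5.32 ± 0.17 for erythroid cells (adjusted p = 1.13e-10). Without tagged sample 1 the endothelium difference was -4.90 (adjusted p = 9.13e-15, edgeR). Endothelium exceeded erythroid cells by 1.28 ± 0.35 (adjusted p = 0.0066, edgeR), and by 0.68 without tagged sample 1 (adjusted p = 0.022). The call ended with all gates doubled (0.60, adjusted p = 0.0815) or halved (0.52, adjusted p = 0.0871).

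Id1 (chr2:152736251-152737410, plus strand) was at 254, 301 and 298 CPM in the endoderm class. It reached 168, 74.7 and 48.8 CPM in the mesoderm class, 187, 108 and 61.6 CPM in the endothelium class and 10.9, 9.24 and 8.70 CPM in the erythroid class. Endoderm was above and erythroid below the other 2 classes, which overlapped, and tagged sample 1 was the highest in both of those. Within each tagged sample endothelium was above mesoderm. Differences from endoderm were -1.80 ± 0.32 for mesoderm (SE, adjusted p = 0.000409, edgeR), -1.35 ± 0.25 for endothelium (adjusted p = 0.000403) and -4.72 ± 0.11 for erythroid cells (adjusted p = 1.73e-11). Without tagged sample 1 the first 2 were -2.51 (adjusted p = 5.46e-08, edgeR) and -1.95 (adjusted p = 1.99e-09). Mesoderm and endothelium differed by -0.44 ± 0.41 (adjusted p = 0.448, edgeR), and by the same -0.44 with an adjusted p of 0.00775 in the fit with the tagged sample as a block. Id1 was also called lower in mesoderm without tagged sample 1 (-0.57, adjusted p = 0.0488, edgeR), with gates doubled (-1.59, adjusted p = 0.000181) and with no low-count filter (-0.43, adjusted p = 0.00618).

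Id3 (chr4:136143497-136145755, plus strand) was high in both the endothelium class, at 315, 338 and 254 CPM, and the endoderm class, at 329, 327 and 319 CPM, with overlapping ranges. The mesoderm class had 122, 105 and 81.0 CPM and the erythroid class 13.9, 9.06 and 7.98 CPM. Neither of these overlapped any other class. Endothelium differed from endoderm by -0.23 ± 0.10 (SE, adjusted p = 0.0589, edgeR), and by -0.23 with an adjusted p of 0.0307 when blocked by tagged sample. Id3 was also called lower in endothelium with no low-count filter and without tagged sample 1. Its lowest adjusted p over the alternatives was 0.00594 (edgeR). Mesoderm was lower than endoderm by a log2 of -1.90 ± 0.13 (adjusted p = 1.93e-07, edgeR) and lower than endothelium by -1.68 ± 0.15 (adjusted p = 2.04e-06). Erythroid cells were at -4.89 ± 0.13 from endoderm (adjusted p = 2.76e-11, edgeR).

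In the erythroid class the pooled levels of Id1, Id2 and Id3 were 3.20%, 2.04% and 2.81% of the endoderm level. The 10 endoderm markers there stood between 1.41% and 2.32%, so Id2 was within that range and Id1 and Id3 were a little above it. The part of free RNA in these low values was not tested.

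**Figure D2:**
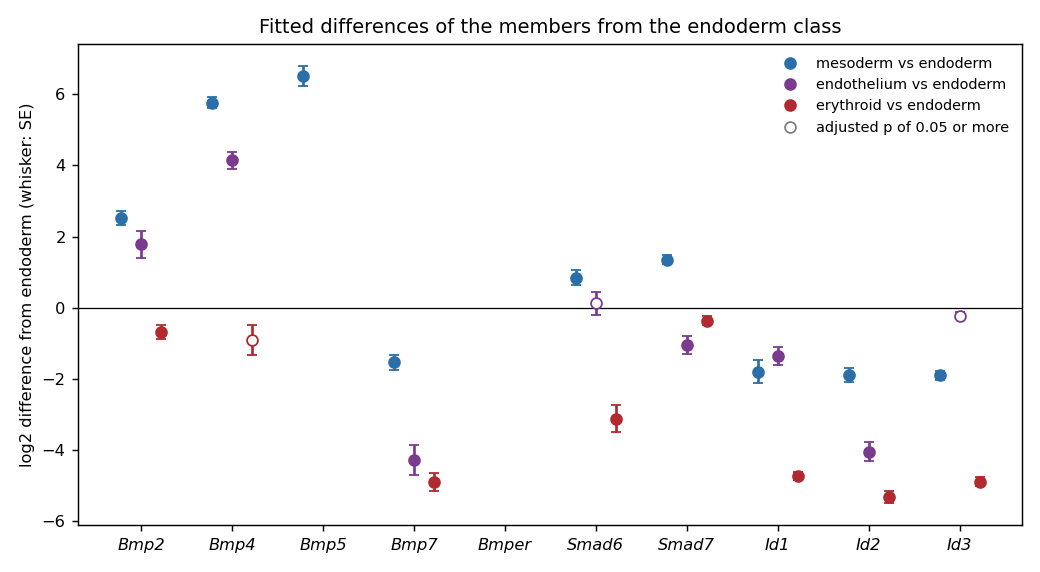
Fitted log2 differences of each member from the endoderm class (vertical axis) for the mesoderm, endothelium and erythroid classes, with the SE as whisker and open points where the adjusted p was 0.05 or more. Bmp5 and Bmp4 lie highest for mesoderm, at 6.51 and 5.76, while Id1 lies at -1.80 and Id2 and Id3 at -1.90. Members that did not pass the low-count filter have no point.

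Over all members, mesoderm against endoderm gave 5 of 9 tested members higher (Bmp2, Bmp4, Bmp5, Smad6 and Smad7) and 4 lower (Bmp7, Id1, Id2 and Id3). Of all 11011 genes tested, 30.6% were called higher and 33.2% lower, so that being called is common in these comparisons and the direction and size carry the description. For endothelium against endoderm, 2 of 8 members were higher (Bmp2 and Bmp4) and 4 lower (Bmp7, Smad7, Id1 and Id2), against 28.6% and 31.9% of all genes. None of 8 members was higher in erythroid cells than in endoderm and 7 were lower, against 36.1% and 41.8% of all genes. Mesoderm against endothelium had 5 of 9 higher (Bmp4, Bmp5, Bmp7, Smad7 and Id2) and 1 lower (Id3), against 15.9% and 19.5%. All 9 tested members were higher in mesoderm than in erythroid cells, against 37.6% of all genes higher and 33.2% lower. Endothelium against erythroid had 5 of 6 higher (Bmp2, Bmp4, Id1, Id2 and Id3) and 1 lower (Smad7), against 34.2% and 31.9%. These comparisons share sums, so the counts are not independent of each other. The median log2 over tested members was 0.85 in mesoderm and -3.92 in erythroid cells against endoderm, beside -0.02 and -0.05 over all genes.

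Scaling by library size alone moved the median of all genes by 0.24 in mesoderm against endoderm, 0.13 in endothelium against endoderm and -0.21 in erythroid cells against endoderm. It moved that median by 0.12 in mesoderm against endothelium, 0.42 in mesoderm against erythroid and 0.32 in endothelium against erythroid. The share of all calls that were higher went from 48.0% to 62.4% in mesoderm against endoderm, from 44.9% to 58.0% in mesoderm against endothelium, from 53.1% to 76.0% in mesoderm against erythroid and from 51.7% to 69.6% in endothelium against erythroid. It went from 47.2% to 54.5% in endothelium against endoderm and from 46.4% to 37.1% in erythroid cells against endoderm. No tested member changed direction under that scaling.

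Within classes, the Id UMIs were spread over many endoderm cells, and a few cells held much of them in the smaller mesoderm and endothelium classes. For Id1 the 5 highest cells held 6.59% to 8.01% of the UMIs of a tagged sample in endoderm, 55.2% to 71.3% in mesoderm and 42.2% to 57.5% in endothelium, out of 170 to 215, 60 to 71 and 36 to 42 cells. For Id3 they held 6.56% to 7.58%, 41.4% to 55.5% and 39.6% to 49.9%, and for Id2 in mesoderm 55.9% to 70.7%. A UMI of Id1, Id2 and Id3 was still found, without thinning, in 42.2%, 56.8% and 62.8% of mesoderm-gate cells. The median cell of the endoderm class had a summed Id1, Id2 and Id3 level of 960, 1118 and 1041 CPM of the cell in the 3 tagged samples. The median endothelial cell had 315, 319 and 302, the median mesoderm-gate cell 119, 79.9 and 73.9, and the median erythroid cell 20.4, 21.8 and 19.4. By medians the endothelium class thus stood well above the mesoderm class in each tagged sample. The summed class levels were 554, 467 and 332 CPM in endothelium and 497, 318 and 240 CPM in mesoderm. Their ranges overlapped, but endothelium was the higher in each tagged sample there too.

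**Figure D3:**
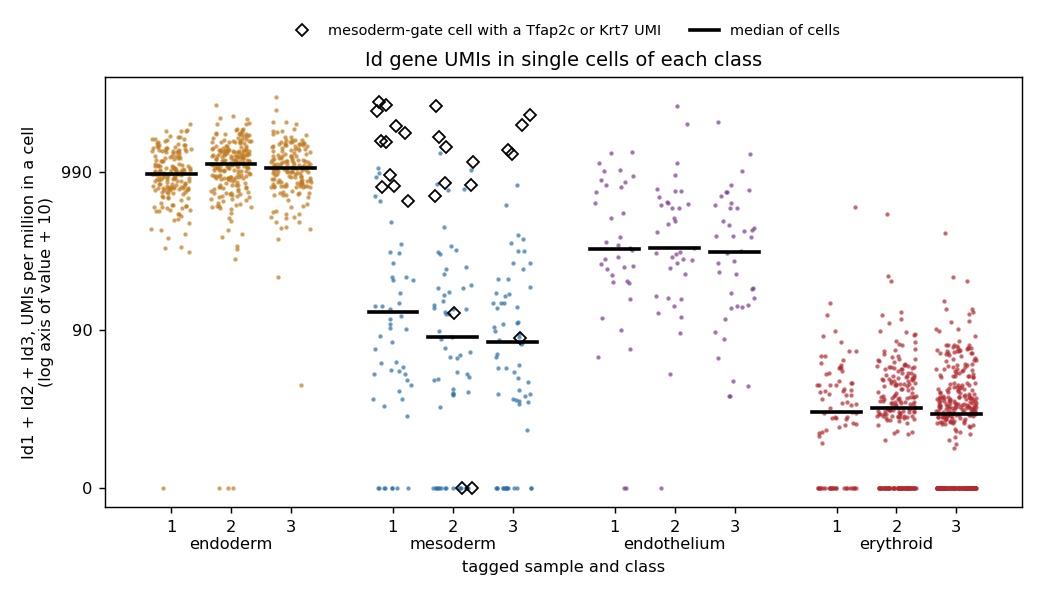
Summed Id1, Id2 and Id3 level in each single cell, in UMIs per 1000000 UMIs of the cell (vertical axis, log scale of the value plus 10) by class and tagged sample, with black bars at the median of cells. Open diamonds are the 26 mesoderm-gate cells with a Tfap2c or Krt7 UMI, many of which lie among the values of the endoderm class.

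The 26 mesoderm-gate cells with a Tfap2c or Krt7 UMI (11, 10 and 5 in the 3 tagged samples) held 74.2% of the Id1, 68.0% of the Id2 and 45.9% of the Id3 UMIs of that class. The same cells held only 3.40% of its Bmp4, 0.932% of its Bmp2 and 2.79% of its Bmp5 UMIs. Their Hand1 level, 456 CPM, was like that of the other 173 cells, 454 CPM, but Foxf1 was at 11.6 against 158 CPM and Vcan at 30.3 against 342 CPM. Epcam, an epithelial adhesion gene, was at 377 against 8.33 CPM, and the trophoblast genes Ascl2 and Esx1 at 77.4 against 1.499 CPM and 54.3 against 0.4996 CPM. Col1a1, a fibrillar collagen gene, was at 16.9 against 177 CPM. Of the 5 genes of the trophoblast list, 3 had UMIs in the mesoderm class and Tpbpa and Prl3d1 had none. The list summed to 27.6 to 37.7 CPM in the mesoderm class, 36.0 to 44.4 CPM in the endoderm class, 47.5 to 64.8 CPM in the endothelium class and 1.68 to 3.01 CPM in the erythroid class. This split of the gate was chosen after the values had been seen.

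Among the 173 mesoderm-gate cells without those UMIs, Id1 was at 33.3, 35.0 and 19.97 CPM, Id2 at 51.2, 73.3 and 44.6 CPM and Id3 at 77.9, 79.3 and 42.7 CPM. Bmp4 was at 170, 130 and 145 CPM in the same cells. The 4 contractile cells are among these 173 and gave 30 of their 175 Id1, 70 of their 341 Id2 and 25 of their 395 Id3 UMIs. Against endoderm the differences became -3.50 for Id1 (adjusted p = 5.65e-09, edgeR), -3.29 for Id2 (adjusted p = 9.82e-09) and -2.51 for Id3 (adjusted p = 9.46e-08). Against endothelium, Id1 became lower by a log2 of -2.15 (adjusted p = 0.000216, edgeR) and Id3 by -2.29 (adjusted p = 7.95e-07), while the Id2 difference fell to 0.74 and was no longer called (adjusted p = 0.0993). Against erythroid cells Id1, Id2 and Id3 were still higher, by 1.25 (adjusted p = 0.00013, edgeR), 2.04 (adjusted p = 3.82e-06) and 2.40 (adjusted p = 1.96e-06). The mesoderm-gate cells with most of the ligand UMIs were therefore not those with most of the Id1 and Id2 UMIs, while Id3 was divided between both sets.

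**Figure D4:**
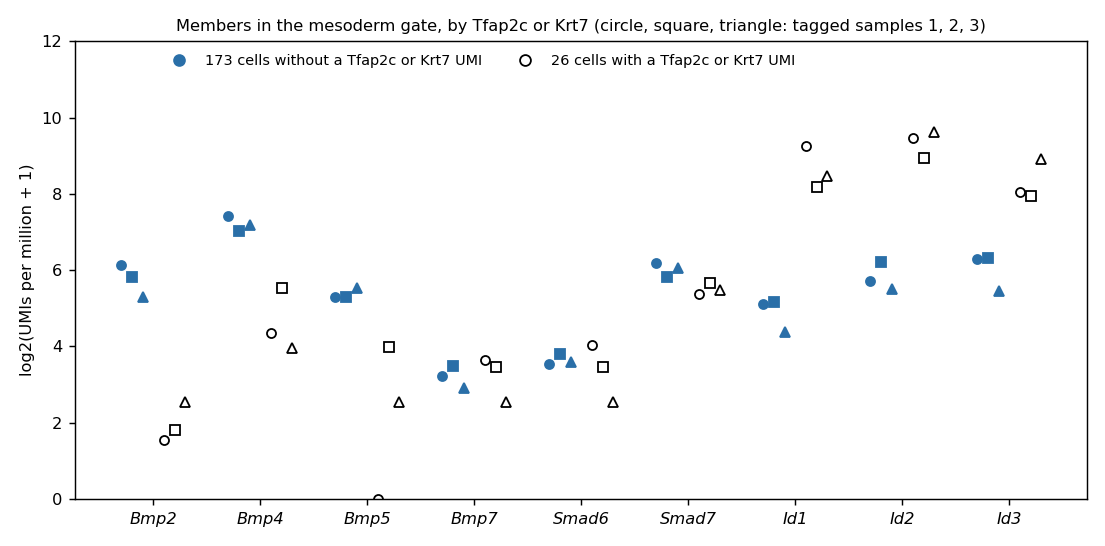
Members in mesoderm-gate cells with and without a Tfap2c or Krt7 UMI, as log2(CPM + 1) in each tagged sample. Id1, Id2 and Id3 are higher in the 26 cells with such a UMI, and Bmp2, Bmp4 and Bmp5 are higher in the 173 cells without.

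Shares of cells with a UMI are given for Bmp4, Id1, Id2, Id3 and Bmp5. With every cell thinned to 10000 UMIs, which left out 28 endoderm, 13 mesoderm, 15 endothelial and 7 erythroid cells, a Bmp4 UMI was found in 67.2% of mesoderm cells (95% exact binomial interval 60.0 to 73.9). It was found in 35.0% of endothelial (25.7 to 45.2), 2.26% of endoderm and 0.804% of erythroid cells. Without thinning, at median depths of 34959, 35699, 56338 and 47771 UMIs, these shares were 89.4%, 59.1%, 7.51% and 3.34%. Id2 was detected after thinning in 97.2% of endoderm cells (95.4 to 98.4), 35.5% of mesoderm cells (28.6 to 42.8), 20% of endothelial cells and 6.59% of erythroid cells. Id3 was detected in 93.0%, 47.3%, 83.0% and 6.91% of the same classes. Id1 was detected in 91.0%, 26.9%, 52.0% and 9.65%. Bmp5 was found in 26.9% of thinned mesoderm cells and, without thinning, in 9 of 559 endoderm cells (1.61%) and 59.8% of mesoderm cells. For Id1 and Id3 the endothelial share lay above the mesoderm share, and for Id2 below it. These intervals cover counting error only.

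Cells with more than 1 ligand were counted in a separate random thinning to 10000 UMIs, so its counts differ slightly from the shares above. Of 161 thinned mesoderm cells without Tfap2c or Krt7, 116 had Bmp4, 55 had Bmp2 and 41 had both, which is 74.5% of the Bmp2 cells and 35.3% of the Bmp4 cells. Both Bmp4 and Bmp5 were found in 36 cells, or 65.5% of the 55 cells with Bmp5. Bmp4 was in 116 of all 161 cells and Bmp2 in 55 of them, so high shares with Bmp4 follow without any link between the genes. Such a link was not tested. Of 100 thinned endothelial cells, 31 had Bmp4, 20 had Bmp2 and 3 had both. The difference between the classes was not tested. In the mesoderm cells with a Bmp4 UMI, Id1 was at 45.5, 19.0 and 12.2 CPM and in those without it at 72.7, 43.8 and 11.1, with overlapping ranges. These Id1 levels rest on few UMIs. Ranges also overlapped for Id2 and Id3 in mesoderm and for Id1, Id2 and Id3 in endothelium. Endothelial Id3 was at 467, 550 and 247 CPM in cells with a Bmp4 UMI and at 252, 305 and 300 CPM in those without. The cells without a Bmp4 UMI here include cells that had one before thinning. In the whole mesoderm class Bmp4 was found in 67.2% of thinned and 89.4% of unthinned cells. In the endothelium class these shares were 35.0% and 59.1%. The split therefore does not separate cells that make Bmp4 from cells that do not.

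Receptor and SMAD genes, which receive the signal, were measured in all 4 classes and differed between them. Their mesoderm levels, and those of the other pathway genes below, are of the whole gate. They were not computed without the cells that had a Tfap2c or Krt7 UMI. Acvrl1, the type I receptor of endothelial cells, was at 41.0, 50.7 and 46.4 CPM in the endothelium class, at 4.55, 7.002 and 6.78 CPM in the mesoderm class and at no more than 0.280 CPM in the endoderm and erythroid classes. Endothelium exceeded endoderm by 7.68 ± 0.30 (SE, adjusted p = 1.92e-10, edgeR). Bmpr1a, the broadly used type I receptor for BMP2 and BMP4, was at 34.4, 34.3 and 31.6 CPM in the endoderm class and 43.7, 49.8 and 44.9 CPM in the mesoderm class, a difference of 0.22 ± 0.11 that did not pass (adjusted p = 0.0996, edgeR). It was lower in endothelium, at 21.4, 8.09 and 17.6 CPM (fitted log2 -1.19 ± 0.23 from endoderm, adjusted p = 0.000602, edgeR). Acvr1, a type I receptor for BMP7-type ligands, was higher in endothelium than in endoderm by 1.63 ± 0.26 (adjusted p = 0.000134, edgeR). Bmpr1b had at most 5 UMIs in any class and was not tested.

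Bmpr2, the main type II receptor, was at 12.3, 8.46 and 9.70 CPM in the endoderm class. It was higher there than in erythroid cells but lower than in mesoderm (34.6, 31.5 and 31.8 CPM) and endothelium (45.7, 45.6 and 36.8 CPM). Bmpr2 was higher than in endoderm by 1.46 ± 0.16 in mesoderm (SE, adjusted p = 1.04e-05, edgeR) and by 1.97 ± 0.18 in endothelium (adjusted p = 6.38e-07). Acvr2b, a type II receptor shared with activins, exceeded endoderm by 2.12 ± 0.13 in mesoderm (adjusted p = 1.11e-07, edgeR). It was the receptor gene called higher in erythroid cells than in endoderm, by 0.96 ± 0.14 (adjusted p = 5.02e-05). Acvr2a rose by 0.52 ± 0.20 in mesoderm (adjusted p = 0.0401, edgeR).

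**Figure D5:**
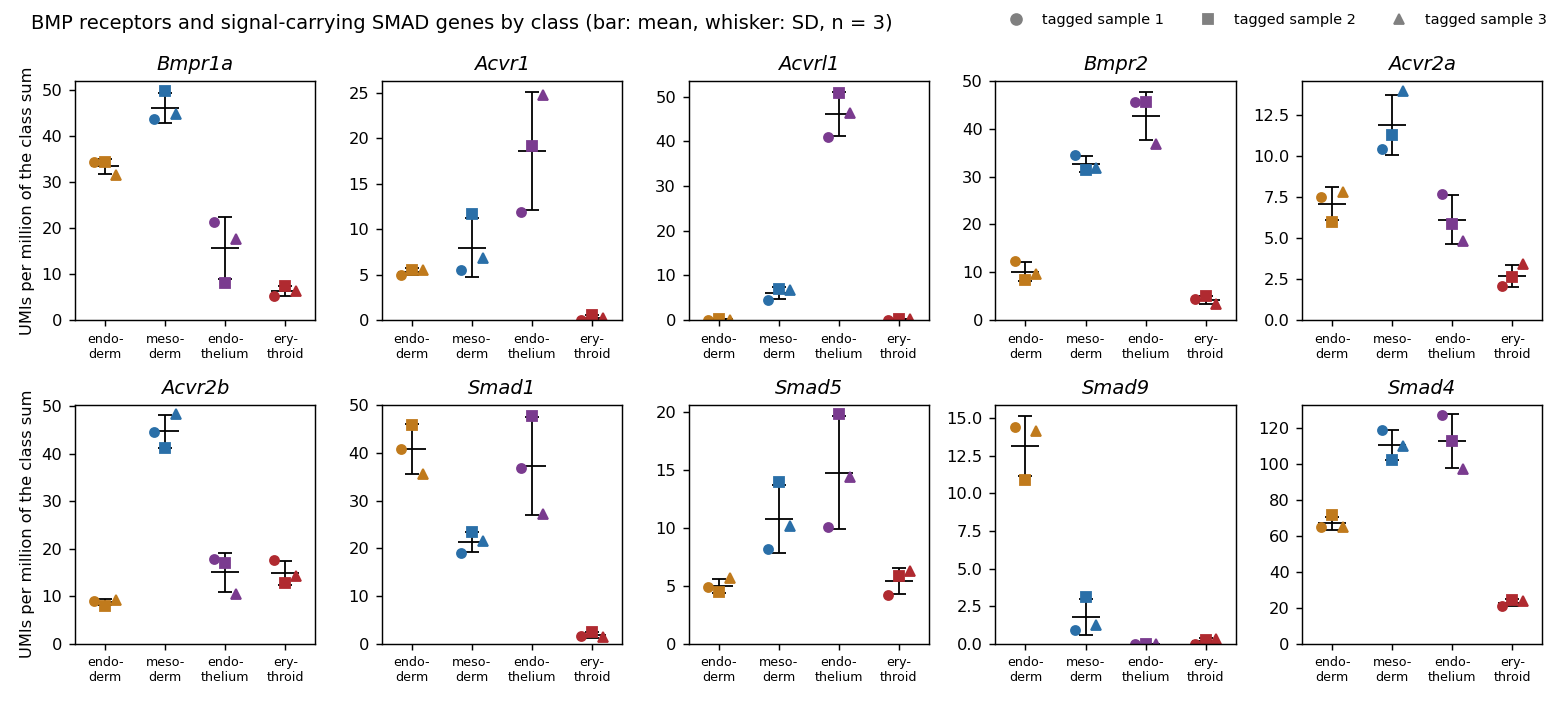
Levels of 10 receptor and SMAD genes in CPM (vertical axes, linear, each from 0) in the 4 classes, with the 3 tagged samples as points, their mean as bar and 1 SD as whisker. Acvrl1 is at 41.0 to 50.7 CPM in endothelium, and Smad9 at 10.9 to 14.4 CPM in endoderm and at 0 in endothelium.

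The receptor-activated SMAD genes differed between the classes. Smad9 was at 14.4, 10.9 and 14.2 CPM in the endoderm class, at 0.910, 3.11 and 1.27 CPM in the mesoderm class and at no UMI in the endothelium class. The pooled endoderm level was at least 18.3-fold higher than a floor of 3 counts over the endothelium class. Smad9 was lower in mesoderm than in endoderm by a log2 of -3.07 ± 0.33 (SE, adjusted p = 8.52e-06, edgeR). Smad1 was at 40.9, 46.0 and 35.5 CPM in endoderm and at 36.8, 47.8 and 27.2 CPM in endothelium, which overlapped, and at 19.1, 23.3 and 21.6 CPM in mesoderm (fitted log2 -1.18 ± 0.15 from endoderm, adjusted p = 3.56e-05, edgeR). Smad5 was higher than in endoderm by 0.88 ± 0.24 in mesoderm (adjusted p = 0.00672, edgeR) and 1.42 ± 0.27 in endothelium (adjusted p = 0.000511). Smad4, the partner of all of them, was higher by 0.47 ± 0.10 in mesoderm (adjusted p = 0.00155, edgeR) and 0.63 ± 0.12 in endothelium (adjusted p = 0.000505). In erythroid cells Smad1, Smad9 and Smad4 were lower than in endoderm by log2 values of -4.28, -5.43 and -1.32 (adjusted p at most 1.13e-07, edgeR), and Smad5 differed by 0.41 (adjusted p = 0.0733).

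Among the 54 other pathway genes listed, 32 could be tested in mesoderm against endoderm, of which 20 were higher and 4 lower, where 30.6% and 33.2% of all genes were. In endothelium against endoderm 31 were tested, 17 higher and 7 lower, against 28.6% and 31.9% of all genes. Erythroid cells against endoderm had 27 tested, 1 higher and 20 lower, against 36.1% and 41.8% of all genes. In mesoderm against endoderm, extracellular modulators were higher in 4 of 6 tested and lower in none. The 4 tested genes of the group of co-receptors and pseudo-receptors were all higher. Bmp6, another ligand of the Bmp7 subgroup, was at 10.5, 7.42 and 6.65 CPM in endoderm and at 11.3, 6.62 and 2.40 CPM in endothelium, with overlapping ranges. It had only 2 UMIs in the mesoderm class, against which the endoderm level was 28.7 times as high (95% exact counting interval 7.87 to 238). Gdf6, a further BMP-class ligand, had 32 UMIs in mesoderm and 3 in endoderm, a ratio of 48.7 (15.2 to 249).

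Of the tested target genes outside the Id family, 3 of 4 were higher in mesoderm than in endoderm and none was lower, beside 30.6% and 33.2% of all genes. In endothelium against endoderm, 3 of 5 were higher and 2 lower, beside 28.6% and 31.9%. Tbx20, a mesodermal transcription factor gene, is counted here but was also among the mesoderm check genes. Its high level in mesoderm was thus already part of that check. Tbx20 was at 51.8, 52.1 and 70.8 CPM in mesoderm and 1.57, 1.39 and 0.654 CPM in endoderm, a difference of 5.30 ± 0.23 (SE, adjusted p = 7.39e-09, edgeR). Msx2, a homeobox target of BMP signals, was at 25.5, 22.6 and 16.5 CPM in mesoderm, 8.28, 3.95 and 6.32 CPM in endoderm and 2.37, 0.735 and 0 CPM in endothelium. The mesoderm class was higher than the endoderm class by 1.60 ± 0.26 (adjusted p = 0.000261, edgeR). Msx1, its relative, exceeded endoderm by 0.61 ± 0.17 in mesoderm (adjusted p = 0.00847, edgeR) and was lower in endothelium by a log2 of -3.63 ± 0.33 (adjusted p = 7.35e-07). The part of mesoderm-gate cells with a Tfap2c or Krt7 UMI in the Msx1 and Msx2 values was not tested. Zfp423, which encodes a cofactor of BMP-activated SMADs, had 45 UMIs in mesoderm, 27 in endothelium and 3 in endoderm. Its ratio to endoderm was 68.5 in mesoderm (95% exact counting interval 21.98 to 344) and 68.2 in endothelium (21.0 to 351).

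Modulators of ligand access also differed between the classes. Eng, a co-receptor of endothelial cells, was at 52.8, 57.4 and 66.4 CPM in endothelium and 0.112, 0.624 and 0.218 CPM in endoderm (7.12 ± 0.30, SE, adjusted p = 4.78e-10, edgeR). Fstl1, a secreted follistatin-like protein gene, was at 103, 88.2 and 92.8 CPM in endothelium and 6.83, 3.26 and 4.14 CPM in endoderm (4.24 ± 0.21, adjusted p = 1.83e-09, edgeR). Fst, encoding the activin and BMP antagonist follistatin, was at 11.6, 11.6 and 6.101 CPM in endoderm and had 2 UMIs in endothelium. In mesoderm it was at 2.73, 69.6 and 1.70 CPM, so 1 tagged sample decided that value (1.13 ± 0.80 from endoderm, adjusted p = 0.236, edgeR). Skil, a repressor of SMAD-driven transcription, was lower than in endoderm by a log2 of -1.48 ± 0.18 in mesoderm (adjusted p = 2.14e-05, edgeR) and -1.37 ± 0.24 in endothelium (adjusted p = 0.000307).

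Genes whose pattern was most like each member were found by Pearson's r of log2(CPM + 1) over the 12 class sums, among 6798 candidate genes. These are descriptions of 12 points from 3 tagged samples, in which 4 classes differ strongly, and carry no p. Bmp4 was most like Gjc1 (0.997), Timp2 (0.992) and Hoxb6 (0.991), and Bmp5 like Mme (0.998), Tenm3 (0.996) and Col1a1 (0.994). Bmp2 was most like Mex3a (0.968), Khdrbs1 (0.967) and Smarca2 (0.966). For Bmp7 the leading genes were Nipa2 (0.985), Lsr (0.977) and Car14 (0.975), and for Id2 they were Bex1 (0.993), Abhd12 (0.991) and Tnks (0.987). Id1 was most like Peg10 (0.977), Obsl1 (0.977) and Soat1 (0.976), and Id3 like Jup (0.992), Lxn (0.992) and Lima1 (0.992). Smad6 was most like Pak4 (0.979), Plxna2 (0.978) and Ctdsp2 (0.976), and Smad7 like Rnf220 (0.959), Kat6b (0.957) and Xpo7 (0.951). Between members, r was 0.921 for Bmp2 with Bmp4 and 0.939 for Id1 with Id3. For Bmp7 it was 0.721 with Id1, 0.970 with Id2 and 0.512 with Id3. For Bmp4 it was 0.301 with Id1, 0.130 with Id2 and 0.404 with Id3.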

How the data were processed

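Cells of 3 tagged yolk sac samples were captured as 1 gene expression library with a CellPlex tag library. The authors deposited raw UMI counts per gene and cell, separated by tagged sample, made with Cell Ranger 6.1.2 per the file headers, on GRCm38 (mm10) per the submitters' processing notes. The counts cover 30970 genes, and 6 tag rows were left out of totals and tests. Cells under 500 genes or over 10% mitochondrial UMIs were removed, and the others were classed by marker shares of at least 0.3% (endoderm), 3% (erythroid), 0.04% (endothelium) and 0.03% (mesoderm). Scrublet in scanpy 1.11.5 marked 89 cells as doublets, of which 58 were in the 4 classes, and they were kept except in an alternative. Counts were summed per class and tagged sample and fitted for each pair of classes with edgeR 4.0.16 in R 4.3.3 (filterByExpr, TMM, quasi-likelihood, Benjamini-Hochberg threshold 0.05), after a test on simulated data. Members that did not pass the filter had an exact two-sided permutation test of CPM, whose smallest p for 3 against 3 is 0.1. DESeq2 1.42.0, other scalings, gates and filters, a block and leaving out each tagged sample were alternatives.

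The sums of different classes come from the same tagged samples, which pairs them by design. Deviations of same-numbered sums from their class means correlated at 0.0159 to 0.182 (median 0.0926, 7 of 18 over 0.1). The unblocked fit was kept as the main one. Pathway genes were named by rule, as the 3 most changed in each direction among the called genes of the list in mesoderm and in endothelium against endoderm, and receptors and SMADs were given throughout. Genes named outside those rules (Fst, Msx1 and Msx2 in mesoderm, Bmp6 and Skil in endothelium, and the genes that describe the cells with Tfap2c or Krt7) were chosen after their values were seen. Members and lists were chosen with earlier results of these data known.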

Additional observations from a re-analysis of the deposited data

Results flagged for a closer look

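The 188 cells that passed no gate take no part in the comparisons, and 9 of the 10 members had UMIs there above the level that a count of 0 allows, 0.357 CPM for the pooled cells (counts per 1000000 UMIs). There were no control samples to set beside them. Pooled levels were 14.3 CPM for Bmp2, 3.93 CPM for Bmp4, 3.57 for Bmp7, 2.26 for Smad6 and 39.3 for Smad7. Those of the target genes were 102 for Id1, 163 for Id2 and 79.2 for Id3, each between the erythroid and endoderm levels. Bmper was at 4.997 CPM pooled, and at 0.265, 16.3 and 0.895 in tagged samples 1, 2 and 3, so tagged sample 2 set that value. In the same cells of tagged sample 2 the parietal endoderm list summed to 706 CPM, against 43.0 and 142 in tagged samples 1 and 3, and Fst was at 431 against 17.0 and 73.4. The part of such cells in the Bmper value was not tested.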

How the results depend on the processing

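The numbers of genes and of members called stayed within 1.5 times their main value in all 6 comparisons under every alternative run, with 5631 to 8222 genes called in mesoderm against endoderm and 2233 to 4131 in mesoderm against endothelium. Of 813 alternative values of 49 member differences, 777 kept their direction and their side of the threshold, 18 passed where the main value did not, 17 lost the call and 1 changed direction. That one was Smad6 in endothelium against endoderm, which went from 0.12 to -0.26 without tagged sample 1 (adjusted p = 0.622, edgeR) and ranged from -0.26 to 0.46 as each tagged sample was left out. The fit with the tagged sample as a replicate block changed the call of Bmp2 (0.85) and Id1 (-0.44) in mesoderm against endothelium, of Bmp4 in erythroid cells against endoderm (-1.09) and of Id3 in endothelium against endoderm (-0.23), and of no other member. Leaving out mesoderm-gate cells low in collagen genes gave -3.46, -3.30 and -2.53 for Id1, Id2 and Id3 against endoderm, close to the values without Tfap2c or Krt7 cells. Both of these were chosen after seeing the data. Smad6 in endothelium against endoderm with thinned sums, and Bmp4 in erythroid cells against endoderm and Bmp7 in mesoderm against endothelium with gates doubled, did not pass the filter there. Of 80 shares of cells recomputed without thinning or at 20000 UMIs, 59 moved outside their interval. Endothelial values rest on 115 cells, which limits Smad6, Bmp5, Bmp7 and Bmper there.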
